A study of Mus musculus with 16 samples.

Results

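The 9 interferon-stimulated genes Stat2, Irf7, Isg15, Usp18, Ifit1, Ifit2, Ifit3, Rsad2 and Oas1a were followed in 16 primary mouse rhabdoid tumors (RT), tumors of early life driven by loss of the chromatin remodeling subunit Smarcb1. They were taken by name as a list that was chosen with earlier results of these data known. All 9 were found among the 24982 genes of the count table and among the 24951 genes of the TPM table. TPM values are transcript abundances scaled for gene length and library size. Each tumor came from a different mouse of the genotype Smarcb1flox/flox;R26-CreERT2, in which tamoxifen given to the pregnant mother activates a Cre recombinase expressed from the ubiquitous Rosa26 locus. All groups carried these alleles, and tissue of another genotype was not analysed here.

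By the site given in the labels, 5 tumors were intra-CNS (within the brain parenchyma), 6 were intracranial extra-CNS (inside the skull but outside the parenchyma) and 5 were extracranial (2 in the jaw and 1 each in the nose, mouth and back). The study's sample table lists the 5 intra-CNS tumors as Shh and the 11 extra-CNS tumors as Myc, so that site and subgroup cannot be told apart in the first comparison. Tamoxifen was given at embryonic day 6 (E6) for all 5 intra-CNS tumors. In the intracranial extra-CNS group it was given at E6 for 1 tumor, at E7 for another and at E8 for the other 4. In the extracranial group 1 tumor was an E6 and 4 were E8 inductions. Mice were 30 to 180 days old in the intra-CNS group, 52 to 170 days in the intracranial extra-CNS group and 80 to 210 days in the extracranial group.

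Interferons are secreted proteins that cells release on sensing viral or displaced nucleic acids. Type I interferons bind the receptor Ifnar1/Ifnar2, whose kinases Jak1 and Tyk2 phosphorylate STAT proteins. Stat2 then joins Irf9 in the complex ISGF3, which binds the interferon-stimulated response element (ISRE) in the promoters of antiviral genes. In tumors these genes can be switched on in tumor cells and in infiltrating immune or stromal cells alike. Bulk RNA cannot tell fewer cells of a type from less RNA per cell.

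Total counts ranged from 17889968 to 110177889 per tumor, with medians of 33441126 in intra-CNS and 30258664 in extra-CNS tumors. The members had 14 to 29810 counts. The lowest were in the intra-CNS tumor of R26P87 (14 for Rsad2, 24 for Ifit1 and 25 for Oas1a), where counting error is not small. Smarcb1 itself was read at 3.99 to 58.1 TPM over the 16 tumors. Because tissue of another genotype was not analysed here and the floxed part of the gene cannot be read from these values, this range does not show how completely Smarcb1 was deleted in any tumor. In the tumor of R26P115, an intracranial extra-CNS tumor, the single gene Ttr (the transthyretin of the choroid plexus) took 19.95% of all TPM, against at most 3.37% for the leading gene of any other tumor. The intra-CNS tumor of 29048 held oligodendrocyte markers at a summed 6299 TPM, against 19.8 to 139 in the other intra-CNS tumors. Results are therefore also given without these tumors.

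The members lie on 7 chromosomes (GRCm38, GENCODE release M21). Stat2 is at chr10:128270559-128292849, Irf7 at chr7:141262706-141266481, Isg15 at chr4:156199424-156200818, Usp18 at chr6:121245906-121270917, Rsad2 at chr12:26442746-26456452 and Oas1a at chr5:120896256-120907521. Ifit2, Ifit3 and Ifit1 form a cluster on chromosome 19, at chr19:34550694-34576419, chr19:34583531-34588731 and chr19:34640871-34650009. All 9 are annotated as protein coding. Reads could be shared with a near-identical neighbor in 3 of them. Of the distinct 100-base words in the transcripts of Oas1a, 40.9% also occurred in Oas1g. For Ifit3, 31.7% also occurred in Ifit3b, and for Ifit1, 3.29% in Ifit1bl2. The levels of Oas1a and Ifit3 are uncertain to that extent.

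Promoters from RefSeq (GRCm38.p6, 250 bases before to 50 after the start of a transcript) were matched by symbol for 8 of the 9 members, with 2 entries for Ifit2. Usp18 had no entry. The ISRE core (GAAA, any 2 bases and GAAA) was searched on both strands, overlapping matches included. Counted by gene symbol, it was held by the promoters of 1079 of all 27025 symbols (3.99%) and by those of 6 of the 8 members. The stretches upstream of the start are shown because they hold matches to this core. Binding at these matches was not measured. Capitals mark the matches, and TTTC, any 2 bases and TTTC is the same core on the other strand.
Isg15: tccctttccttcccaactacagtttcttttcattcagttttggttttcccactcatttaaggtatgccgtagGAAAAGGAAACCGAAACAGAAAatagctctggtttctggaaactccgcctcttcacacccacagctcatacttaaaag
Oas1a: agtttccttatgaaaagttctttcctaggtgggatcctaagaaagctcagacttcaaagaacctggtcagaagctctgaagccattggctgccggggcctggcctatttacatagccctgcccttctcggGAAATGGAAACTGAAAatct
Ifit1: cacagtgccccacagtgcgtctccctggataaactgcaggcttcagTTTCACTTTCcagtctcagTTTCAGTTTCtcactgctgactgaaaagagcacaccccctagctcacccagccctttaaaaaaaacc
Ifit3: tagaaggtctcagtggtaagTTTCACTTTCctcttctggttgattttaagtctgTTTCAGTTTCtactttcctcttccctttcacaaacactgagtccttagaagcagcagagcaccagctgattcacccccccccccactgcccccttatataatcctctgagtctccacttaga
Rsad2: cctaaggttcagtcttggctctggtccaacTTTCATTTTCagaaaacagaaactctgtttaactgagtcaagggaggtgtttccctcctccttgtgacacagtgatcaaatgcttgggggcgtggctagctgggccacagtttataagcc
Stat2: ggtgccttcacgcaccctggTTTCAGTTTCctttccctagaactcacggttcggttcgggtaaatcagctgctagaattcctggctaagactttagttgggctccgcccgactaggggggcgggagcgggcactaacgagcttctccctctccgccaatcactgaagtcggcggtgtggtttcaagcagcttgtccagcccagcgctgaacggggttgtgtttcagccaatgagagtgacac

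These stretches lie at chr4:156200819-156200968 for Isg15, chr5:120907526-120907675 for Oas1a and chr12:26456453-26456602 for Rsad2 on the minus strand, and at chr19:34640739-34640870 for Ifit1, chr19:34583353-34583528 for Ifit3 and chr10:128270256-128270497 for Stat2 on the plus strand. Isg15 held 3 overlapping matches, the first of which began 78 bases before the start, and Oas1a held 2 overlapping matches that began 20 and 14 bases before it. Ifit1 and Ifit3 held 2 matches each, at 104 and 85 and at 156 and 122 bases before the start, while Rsad2 and Stat2 held 1 each, at 120 and 222 bases. All these positions count from the start of the RefSeq transcript. For Ifit1 the printed stretch begins 150 bases before that start and is cut after 132 bases, where the gene begins in GENCODE. No match was found in the windows of Irf7 and Ifit2. The core of the gamma-activated sequence (TTC, any 3 bases and GAA), to which STAT dimers bind after interferon gamma, was held by the promoters of 9.55% of all symbols and by those of 2 of the 8 members, Oas1a and Ifit2.

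The first comparison asked whether the members' RNA level differed between intra-CNS and extra-CNS tumors. All 9 were lower in the intra-CNS tumors. By the mean TPM of the groups, extra-CNS tumors held 27-fold more Ifit1, 20.1-fold more Irf7, 17.5-fold more Rsad2, 10.7-fold more Isg15, 10.3-fold more Oas1a, 6.84-fold more Usp18, 6.82-fold more Ifit3, 3.77-fold more Ifit2 and 2.72-fold more Stat2. With edgeR's quasi-likelihood test over 21854 genes (called where the Benjamini-Hochberg adjusted p was under 0.05 and the log2 fold change passed 1 in size), 9 of 9 members were called lower, against 13.1% of all genes called lower (2860 genes). The median log2 fold change of the members was -3.86, against -0.15 over all genes tested. They ranked between 385 (Ifit1) and 1981 (Stat2) by fold among the 2860 genes called lower, so that many other genes differed by more. Because the list was chosen with earlier results of these data known, the share over all genes is a background and not a test of the list.

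**Figure D1:**
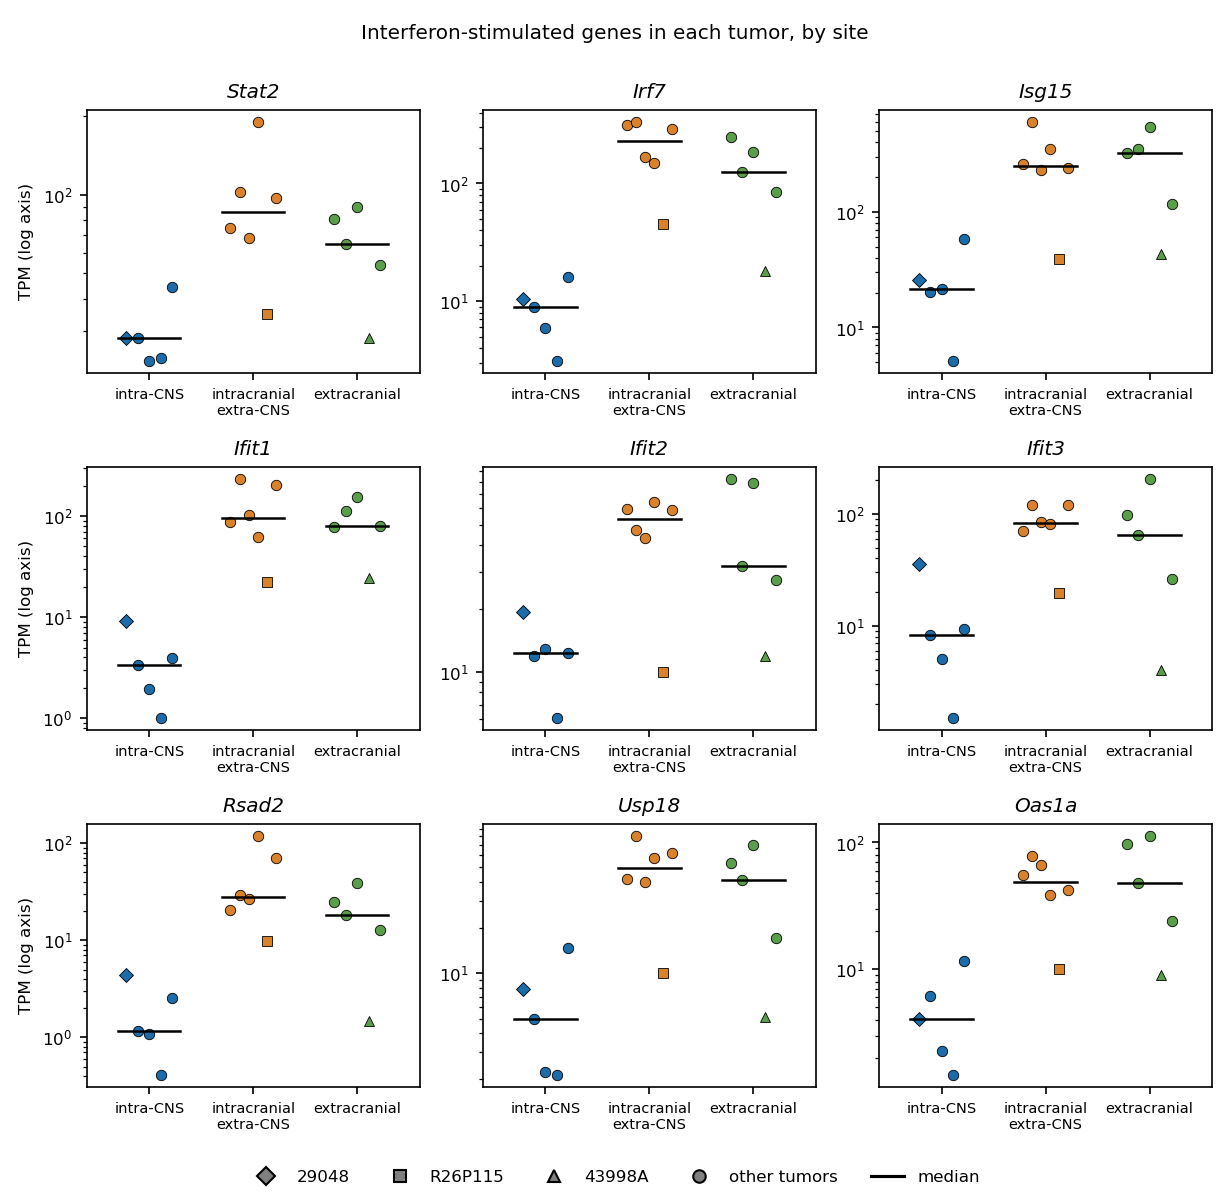
TPM of each of the 9 genes (log axis) in every tumor by site, with 1 point per tumor and a line at the median of the site. Irf7 and Ifit1 are the genes in which no intra-CNS tumor reached an extra-CNS tumor, and in the other 7 the overlap came from the extra-CNS tumors with the lowest levels, most often R26P115 (square) and 43998A (triangle).

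Stat2 and Irf7 are the transcription factors of the list. Stat2 is a constitutive part of ISGF3, and Irf7 amplifies the response by driving interferon alpha genes. In the intra-CNS tumors Irf7 stood at 3.10, 5.94, 8.87, 10.5 and 15.9 TPM. Its extracranial values were 18.1, 84.7, 125, 186 and 250.01 TPM, and in the 6 intracranial extra-CNS tumors it ranged from 44.9 to 333 TPM with a median of 228. The highest intra-CNS tumor, R26P98, thus stayed just below the lowest extra-CNS tumor, 43998A. The log2 fold change of Irf7 was -4.82 ± 0.68 (SE, adjusted p = 8.2e-05 by edgeR). Stat2 varied least: the intra-CNS tumors held 23.1, 23.7, 28.4, 28.4 and 44.3 TPM. Extracranial tumors held 28.4, 54.1, 64.6, 80.5 and 89.7 TPM of Stat2, and the intracranial extra-CNS tumors 34.9 to 190.0 TPM with a median of 85.6. Both low extra-CNS tumors, 43998A and R26P115, fell below the intra-CNS tumor of R26P98. Stat2 had the smallest fold change of the members, -1.97 ± 0.38 on the log2 scale (SE, adjusted p = 0.00099 by edgeR).

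Isg15 encodes a ubiquitin-like protein that is joined to other proteins, and Usp18 the protease that removes it and that also blocks signaling from the receptor subunit Ifnar2. Intra-CNS tumors had 5.12, 20.4, 21.5, 25.8 and 58.2 TPM of Isg15. In the extracranial tumors it reached 43.3, 116, 319, 347 and 536.5 TPM, and in the intracranial extra-CNS tumors 39.4 to 597 TPM with a median of 247. The groups overlapped through R26P98 on the intra-CNS side and R26P115 and 43998A on the extra-CNS side. Isg15 had a log2 fold change of -3.91 ± 0.71 (SE, adjusted p = 0.00062 by edgeR). Usp18 followed the same pattern at lower levels, with 2.12, 2.23, 4.95, 7.87 and 14.6 TPM in intra-CNS and 5.14, 17.0, 41.3, 53.4 and 69.9 TPM in extracranial tumors. The intracranial extra-CNS tumors held 10.1 to 80.5 TPM of Usp18, with a median of 49.7. The same 2 extra-CNS tumors lay below R26P98, and the log2 fold change was -3.28 ± 0.67 (SE, adjusted p = 0.0015 by edgeR).

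Ifit1, Ifit2 and Ifit3 encode proteins with tetratricopeptide repeats that bind foreign RNA and hinder its translation. Ifit1 showed the largest fold change of the members. It was at 1.01, 1.95, 3.39, 3.95 and 9.14 TPM in the intra-CNS tumors. Extracranial tumors held 24.1, 77.8, 79.4, 113 and 153 TPM of Ifit1, and the intracranial extra-CNS tumors 22.4 to 232 TPM with a median of 94.6. All 11 extra-CNS tumors lay above all 5 intra-CNS tumors, and the log2 fold change was -5.25 ± 0.70 (SE, adjusted p = 5.5e-05 by edgeR). The intra-CNS values of Ifit3 were 1.495, 4.998, 8.28, 9.43 and 35.6 TPM, a 23.8-fold range. The extracranial values of Ifit3 were 4.04, 26.4, 65.0, 98.5 and 205 TPM, a 50.9-fold range, and the intracranial extra-CNS tumors held 19.5 to 121 TPM with a median of 82.8, a 6.22-fold range. The high intra-CNS value belonged to 29048, and 3 extra-CNS tumors lay below it. The log2 fold change of Ifit3 was -3.27 ± 0.82 (SE, adjusted p = 0.0062 by edgeR). Leaving out 29048 brought it to -4.24 (adjusted p = 0.0021 by edgeR). Ifit2 had 6.05, 11.9, 12.3, 12.8 and 19.2 TPM in the intra-CNS tumors. It reached 11.9, 27.3, 32.0, 79.1 and 82.5 TPM in extracranial tumors and 10.04 to 64.3 TPM, with a median of 53.2, in the intracranial extra-CNS tumors. Again R26P115 and 43998A fell among the intra-CNS tumors, and the log2 fold change was -2.43 ± 0.48 (SE, adjusted p = 0.0010 by edgeR). For Ifit1, the log2 fold change with 29048 left out was -5.84 (adjusted p = 7.6e-05 by edgeR). These were the largest changes with a single tumor left out. The smallest were -2.99 for Ifit3 and -5.01 for Ifit1.

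Rsad2 encodes viperin, a radical SAM enzyme that makes a chain-terminating nucleotide, and Oas1a an oligoadenylate synthetase that senses double-stranded RNA and activates RNase L. Rsad2 was the least abundant member in each site, with 0.409, 1.09, 1.17, 2.55 and 4.42 TPM in the intra-CNS tumors. Extracranial tumors held 1.47, 12.9, 18.0, 24.9 and 38.8 TPM, and intracranial extra-CNS tumors 9.93 to 119 TPM with a median of 27.8. A single extra-CNS tumor, 43998A, lay within the intra-CNS range, and the log2 fold change of Rsad2 was -4.67 ± 0.92 (SE, adjusted p = 0.0011 by edgeR). Leaving out 29048 brought it to -5.23 (adjusted p = 0.0017 by edgeR), and with single tumors left out the smallest change was -4.21. Oas1a was at 1.47, 2.26, 4.05, 6.20 and 11.6 TPM in the intra-CNS tumors. It reached 9.05, 24.2, 48.1, 97.4 and 113 TPM in the extracranial and 9.98 to 78.7 TPM, with a median of 48.5, in the intracranial extra-CNS tumors. The overlap was between R26P98 and the pair of R26P115 and 43998A, and the log2 fold change was -3.86 ± 0.69 (SE, adjusted p = 0.00051 by edgeR).

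Every extra-CNS tumor lay above every intra-CNS tumor in 2 of the 9 members, Irf7 and Ifit1. This held for 3.32% of the 14803 genes whose counts averaged 50 or more. Against the intracranial extra-CNS tumors alone it held for 3 members (Irf7, Ifit1 and Rsad2; background 5.18%), and against the extracranial tumors alone for Irf7 and Ifit1 (background 6.90%). By the mean of log2(TPM + 1), Stat2 and Isg15 led the order of levels in intra-CNS tumors. In both extra-CNS sites Isg15 and Irf7 led, Ifit1 came next and Rsad2 stood last. Neighbors in these orders were close: in none of the 3 sites did any of the 8 gaps between neighbors exceed the larger of their SDs.

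The fold changes were also taken against each extra-CNS site by itself. Against the 6 intracranial extra-CNS tumors, 9 of 9 members were called lower in the intra-CNS tumors (11.9% of all genes called lower), with log2 fold changes from -2.22 (Stat2) to -5.43 (Ifit1). Against the 5 extracranial tumors, 9 of 9 were also called lower (12.7% of all genes), from -1.59 (Stat2) to -4.996 (Ifit1), and Ifit3 had the largest adjusted p, 0.037 by edgeR. Both comparisons share the intra-CNS tumors.

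**Figure D2:**
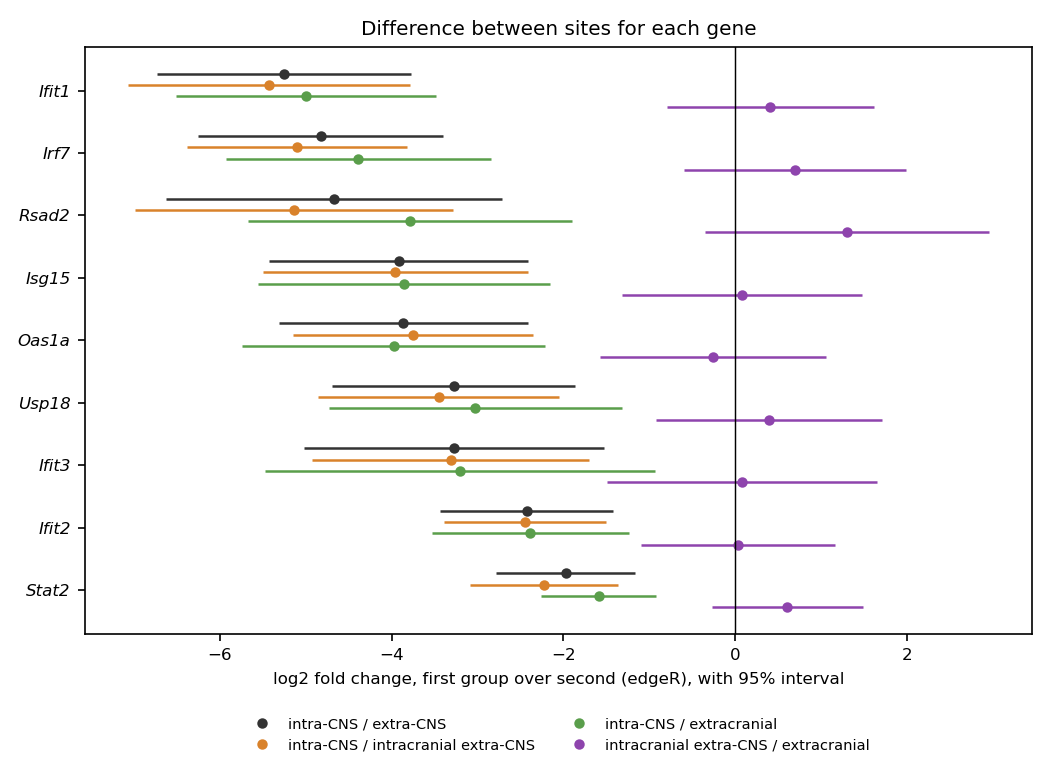
Log2 fold change of each gene (edgeR) with its 95% interval for 4 comparisons between sites. The intervals against extra-CNS tumors, together or by site, lie below 0 for all 9 genes, and those between the 2 extra-CNS sites include 0 for all 9.

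All intra-CNS tumors were induced at E6, while 9 of the 11 extra-CNS tumors were not. Among tumors induced at E6 alone, 5 intra-CNS tumors stood against the tumors of R26P170 (intracranial extra-CNS) and 43825B (extracranial). These held Irf7 at 288 and 250.01 TPM and Ifit1 at 202 and 77.8 TPM, above all intra-CNS tumors, and 9 of 9 members were called lower in intra-CNS tumors, with 10.6% of all genes called lower. The mouse names follow 2 schemes, numbers and R26P names, whose meaning the labels do not give. Within the numbered mice (3 intra-CNS and 8 extra-CNS tumors) 9 of 9 members were called lower (11.5% of all genes), with log2 fold changes from -2.32 (Stat2) to -5.10 (Irf7). Within the R26P mice (2 against 3 tumors), the fold changes were also below 0 for all 9, from -1.41 (Stat2) to -5.87 (Ifit1). There edgeR called 0 of the members (adjusted p 0.19 to 0.37, and 6 of 9 at an unadjusted p under 0.05) and 0 of 20347 genes, of which 3514 had an unadjusted p under 0.05. Without the tumors of 29048 and R26P115, 9 of 9 members were called lower (12.9% of all genes), from -2.03 (Stat2) to -5.94 (Ifit1).

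The tumors differed in level across the members together. Among the 11 extra-CNS tumors, 43998A (mouth) was lowest for 6 members and R26P115 for the other 3, and both were among the lowest 2 for all 9. The members summed to 145 TPM in 43998A and 201 TPM in R26P115, against 442 to 1623 TPM in the other 9 extra-CNS tumors. The highest extra-CNS tumor was 29941C for 4 members, 43990A (nose) and 43992A for 2 each and 43825B (back) for 1. Among the intra-CNS tumors R26P98 was highest for 5 members and 29048 for 4 (Ifit1, Ifit2, Ifit3 and Rsad2), while R26P87 was lowest for 8. Their sums were 173, 145 and 44.5 TPM.

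**Figure D3:**
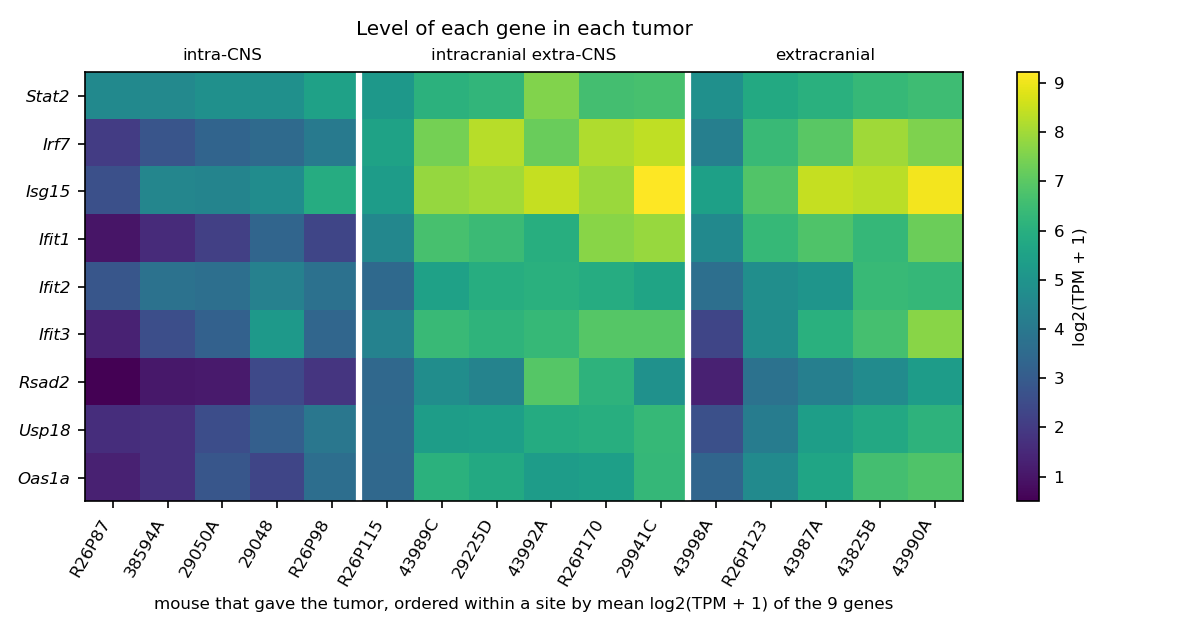
Log2(TPM + 1) of the 9 genes (rows) in the 16 tumors (columns), ordered within each site by their mean. The columns of R26P115 and 43998A have the lowest means of the extra-CNS tumors, and R26P87 is the darkest intra-CNS column.

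The second comparison was between the 2 extra-CNS sites. For none of the 9 members did the intracranial extra-CNS tumors differ from the extracranial tumors by the test. The log2 fold changes, intracranial over extracranial, were 1.30 ± 0.76 (SE) for Rsad2 (95% interval -0.35 to 2.96), 0.69 ± 0.59 for Irf7 and 0.61 ± 0.40 for Stat2. They were 0.41 for Ifit1 and 0.40 for Usp18, and between -0.25 (Oas1a) and 0.08 for Isg15, Ifit2, Ifit3 and Oas1a. edgeR called 0 of 9 members (adjusted p 0.50 to 0.98), and 0 of 9 had an unadjusted p under 0.05, against 12.3% of all genes. Of 21261 genes, 1 was called in all (0.0047%). DESeq2's Wald test called 490 genes and 0 members. The 95% intervals reached from -1.57 (Oas1a) to 2.96 (Rsad2) over the members, so that 6 against 5 tumors leave room for differences within that span. Labelled as extracranial, 43990A is listed as intracranial extra-CNS in the study's sample table. Moving it there left 0 of 9 members called.

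The rest of the pathway was described from lists of genes by role, to be read against the 13.1% of all genes called lower and the 12.9% called higher in intra-CNS tumors. With limma on log2(TPM + 1) the background was 5.98% called lower, and 4075 of 21841 genes called higher. With tumors induced at E6 alone it was 10.6% lower, and 1315 of 20904 genes higher. Of 21 interferon ligands, 10 had no count in any tumor. Of the 11 tested, 3 were called lower in intra-CNS tumors (Ifnb1, Ifne and Ifnz, named here after their values were seen) and 0 higher, at very low counts. Ifnb1, the interferon beta gene, had 0 counts in all 5 intra-CNS tumors and at most 3 counts in 9 of the 11 extra-CNS tumors. It reached 37 counts (3.81 TPM) in R26P170 and 18 counts (1.05 TPM) in 43987A. All ligands together summed to at most 0.141 TPM in intra-CNS and 0.160 to 4.60 TPM in extra-CNS tumors. Among tumors induced at E6 alone 0 ligands of 7 tested were called by edgeR, and without the tumors of 29048 and R26P115 2 of 11 were. With limma on log2(TPM + 1) none of the 11 was called, and with edgeR 1 was called without any one of 29048, 38594A, 29050A and R26P98.

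Of 9 receptor chains and kinases, 4 were called lower and 2 higher in the intra-CNS tumors. Il10rb, a chain shared by the interferon lambda receptor, had a log2 fold change of -2.85 ± 0.38 (SE), Ifngr1 -1.68 ± 0.23 and Ifnar2 -1.50 ± 0.23 (edgeR adjusted p 5.3e-05, 7.8e-05 and 0.00014). The kinase Jak1 was the other gene called lower (-1.44 ± 0.52, adjusted p = 0.041 by edgeR), and this call rested on single tumors. Jak1 was at 590 TPM in 29941C, against a median of 83.6 TPM over the extra-CNS tumors and 64.3 to 79.0 TPM in the intra-CNS tumors. Without 29941C its log2 fold change was -0.88, short of the fold required for a call, and it was not called either (edgeR adjusted p 0.055 to 0.084) without 43992A or without any one of the 5 intra-CNS tumors. Higher in intra-CNS tumors were Ifnlr1 (1.55 ± 0.50, adjusted p = 0.025 by edgeR) and Jak2 (1.42 ± 0.27, adjusted p = 0.00081), and both kinases were named after their values were seen. Ifnlr1 was not called without 29050A (0.97, adjusted p = 0.17 by edgeR) or without R26P98 (adjusted p = 0.057 by edgeR). Among tumors induced at E6 alone 3 were called lower and 0 higher. With limma on log2(TPM + 1) 2 were called in each direction, against 1307 lower and 4075 higher of 21841 genes. Ifnar1, the other chain of the type I receptor, stood at -0.30 ± 0.19 and was not called.

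Of 6 further transcription factors, 4 were called lower in intra-CNS tumors and 0 higher. They were Irf1 (-3.17 ± 0.33), Irf5 (-2.36 ± 0.40), Irf8 (-1.74 ± 0.44) and Irf9 (-1.08 ± 0.24), the partner of Stat2, with edgeR adjusted p of 8.6e-06, 0.00036, 0.0067 and 0.0027. Irf3, which starts interferon production after nucleic acids are sensed, was at -0.24 ± 0.23 and not called. Irf9 fell short of the fold required for a call without 29048 (-0.99) or 43990A (-0.97). With limma on log2(TPM + 1), 2 of the 6 were called lower. Of 15 nucleic acid sensors and adaptors, 13 were called lower and 0 higher. The largest fold changes were Dhx58 (-4.16 ± 0.53), a regulator of RIG-I-like sensing, Zbp1 (-3.61 ± 0.68), a sensor of Z-form nucleic acid, the kinase Ikbke (-3.38 ± 0.44) and Ddx58 (-3.11 ± 0.33), which encodes RIG-I (edgeR adjusted p between 9.1e-06 and 0.00077).

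Among 10 genes that restrain interferon signaling or the RNA and DNA that trigger it, 9 were tested, and 4 were called lower and 0 higher in intra-CNS tumors. They were the exonuclease gene Isg20 (-3.84 ± 0.80), Socs3 (-2.70 ± 0.47), Samhd1 (-1.60 ± 0.33) and Socs1 (-1.58 ± 0.44), at edgeR adjusted p of 0.0017, 0.00040, 0.0015 and 0.012. With limma on log2(TPM + 1) 2 of the 9 were called lower. Of 39 further type I targets, 36 were called lower and 0 higher, with a median log2 fold change of -3.32. The largest were Oas3 (-5.48 ± 0.83), Oasl1 (-4.70 ± 0.89), Oas1g (-4.50 ± 0.82) and Ifi47 (-4.49 ± 0.74), at edgeR adjusted p between 0.00015 and 0.00083. Of 19 genes best known as targets of interferon gamma, 17 were called lower and 0 higher, led by the chemokine genes Cxcl9 (-7.15 ± 2.26) and Cxcl10 (-4.71 ± 1.34) and the GTPase genes Iigp1 (-5.30 ± 0.93) and Gbp2 (-4.52 ± 0.64), at edgeR adjusted p of 0.023, 0.013, 0.00047 and 8.3e-05. Cxcl9 was not called without any one of 29048, 29050A, 38594A and R26P87 (edgeR adjusted p 0.050 to 0.056). Without the tumors of 29048 and R26P115 the counts were 12 of 15 sensors, 36 of 39 type I targets and 16 of 19 gamma targets, and among tumors induced at E6 alone they were 13, 33 and 14. Between the 2 extra-CNS sites edgeR called 0 genes in any of these lists. At an unadjusted p under 0.05 were 2 of 11 ligands, 1 of 15 sensors, 1 of 19 gamma targets and 0 of the type I targets, against 12.3% of all genes. The gamma target was Cxcl9, at -5.19 ± 1.51 intracranial over extracranial (adjusted p = 0.35 by edgeR). The sensor was Dhx58, at -1.14 ± 0.42 (adjusted p = 0.36 by edgeR).

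**Figure D4:**
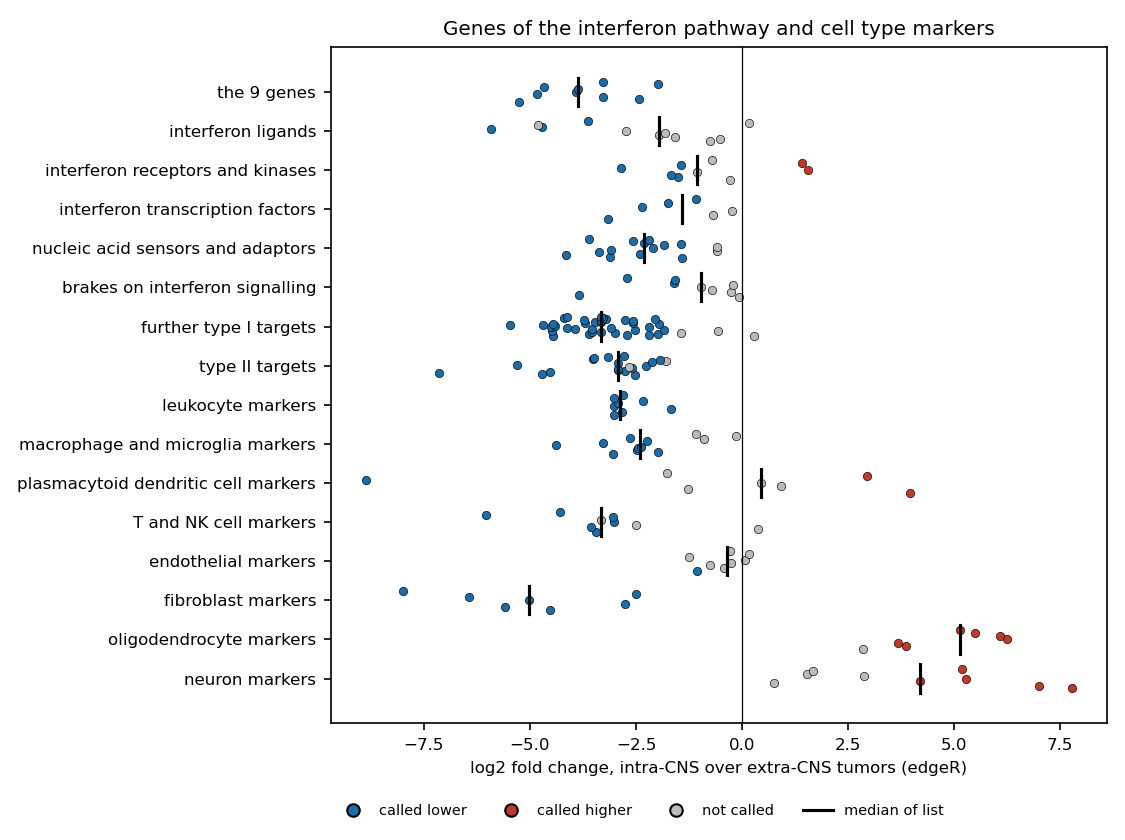
Log2 fold change of each gene, intra-CNS over extra-CNS tumors (edgeR), by list, with a line at the median of the list. The 9 genes, the sensors, the further type I targets and the type II (interferon gamma) targets lie mostly between -1 and -6, as do the leukocyte, macrophage and fibroblast markers, while oligodendrocyte and neuron markers lie above 0.

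Markers of cell types differed in the same comparison. Of 8 leukocyte markers, 8 were called lower in the intra-CNS tumors, and their summed level was 286 to 493 TPM there and 555 to 4139 TPM in the extra-CNS tumors. Of 12 macrophage and microglia markers, 9 were called lower (773 to 1221 TPM summed, against 807 to 8975). The 3 not called were P2ry12 (-0.15 ± 0.49), Cx3cr1 (-0.90 ± 0.61) and Tmem119 (-1.08 ± 0.54), which are known as markers of microglia (edgeR adjusted p 0.83, 0.26 and 0.13, named after their values were seen). T and NK cell markers were called lower in 6 of 9 by edgeR but in 2 of 9 among tumors induced at E6 alone, 1 of 9 by limma on log2(TPM + 1), 3 of 9 without 29048 or 38594A and 2 of 9 without R26P87, at summed levels of 0.643 to 6.11 TPM against 1.07 to 43.3 TPM. Of 7 fibroblast markers, 7 were called lower (112 to 533 TPM against 618 to 11520 TPM), and 4 among tumors induced at E6 alone. No leukocyte, macrophage or fibroblast marker was at 0 in all tumors of a site. Of 7 markers listed for plasmacytoid dendritic cells, a main source of type I interferon, 1 was called lower and 2 higher. They summed to 11.7 to 66.6 TPM in intra-CNS and 1.49 to 167 TPM in extra-CNS tumors. The lower one was Ly6d (-8.87 ± 2.55, adjusted p = 0.014 by edgeR). The 2 higher ones, Bcl11a (3.97 ± 0.60) and Siglech (2.94 ± 0.71), are also known from neurons and microglia. Endothelial markers were called lower in 1 of 8, and in 0 to 2 when single tumors were left out. Oligodendrocyte markers were called higher in the intra-CNS tumors in 6 of 7 (19.8 to 6299 TPM summed, against 9.02 to 107). By limma on log2(TPM + 1) 1 of 7 was called higher, no more than the share of all genes (4075 of 21841). By DESeq2, among tumors induced at E6 alone, or without 29048, 0 of 7 were called higher. Neuron markers were called higher in 5 of 9, and in 3 of 9 among tumors induced at E6 alone. Of this list, the paper names Dcx, Stmn2 and Tubb3 as markers of neuronal progenitor clusters within murine Shh tumors. Bulk RNA does not tell whether tumor cells or other cells gave the markers of any list. The part of these cell types in the members' levels was not tested.

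The extra-CNS tumors with the lowest members differed in these markers. R26P115 had the lowest summed leukocyte markers (555 TPM) and macrophage markers (807 TPM) of the 11. The tumor of 43998A had 3511 TPM of leukocyte markers, the second highest of the 11, and 2779 TPM of macrophage markers, above all intra-CNS tumors, with members at 1.47 (Rsad2) to 43.3 TPM (Isg15). Its fibroblast markers summed to 11427 TPM, close to the highest of all tumors. In R26P98, the intra-CNS tumor with the highest level for 5 members, leukocyte and macrophage markers were also the highest of the 5 intra-CNS tumors (493 and 1221 TPM). The tumor of 29048, highest for the other 4 members, had 429 and 1045 TPM of them, the third highest of the 5. The tumor of 38594A, among the lowest 2 for 7 members, was second highest in both (452 and 1164 TPM).

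Within the 11 extra-CNS tumors the members rose and fell together. Over the 36 pairs, Pearson's r of log2(CPM + 1), with CPM from TMM-scaled counts, had a median of 0.85 and ranged from 0.59 (Stat2 with Ifit1) to 0.97 (Ifit3 with Usp18). These tumors share the 2 with low levels, and the correlations are a description. Spearman's rho had a median of 0.74. Usp18 had the highest median correlation with the other members (0.90), and Rsad2 and Stat2 the lowest (0.78 and 0.79). Rsad2 and Stat2 were nearest to each other (0.94), and both were highest in the tumor of 43992A.

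**Figure D5:**
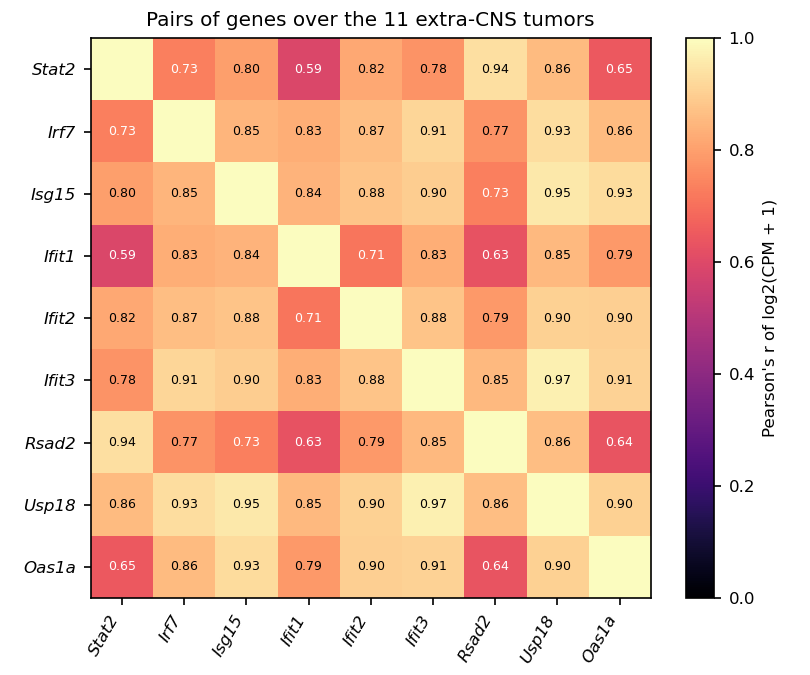
Pearson's r of log2(CPM + 1) for each pair of the 9 genes over the 11 extra-CNS tumors. Values range from 0.59 to 0.97, with Usp18 highest on the whole and the pairs of Ifit1 or Oas1a with Stat2 or Rsad2 lowest.

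Of 14798 other genes whose counts averaged 50 or more, those most like the mean standardized level of the members over the 11 extra-CNS tumors were Oas1b (r = 0.95), the ubiquitin ligase gene Rnf213 (0.94), Adar (0.93), Xaf1 (0.93) and Mx2 (0.92). All 5 were already on the lists above, as were 13 of the leading 20. The lists were chosen with earlier results of these data known, so this overlap is a description. The share of the 14798 genes that is on the lists was not computed. With any single tumor left out, the lowest r among the 5 was 0.84 (Mx2). Among them, Adar, which edits double-stranded RNA and so keeps it from being sensed, differed between the comparisons. In the 11 extra-CNS tumors it followed the members, from 28.7 TPM in R26P115 to 67.9 TPM in 29941C. Yet it was at 46.2 to 92.0 TPM in the intra-CNS tumors, where the members were low, and its log2 fold change was -0.07 ± 0.21 (SE, adjusted p = 0.82 by edgeR).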

How the data were processed

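RNA of 16 tumors was sequenced as stranded, polyA-selected, paired-end libraries. Per the labels the tools were Trim Galore, FastQC, Picard and STAR 2.5.3a with mm10. The authors deposited raw counts per gene and TPM values of the same tumors. The gene annotation is not given in the sources used here. Counts were tested with edgeR 4.0.16 under R 4.3.3 (TMM scaling, then glmQLFit and glmQLFTest). P-values were adjusted by Benjamini-Hochberg over every gene with a count, and a gene was called at an adjusted p under 0.05 with a log2 fold change past 1 in size. Intervals are 95% and SEs come from the F statistic. All 16 tumors entered the first fit and the 11 extra-CNS tumors the second. Levels are TPM, and after one scale factor for each tumor, count and TPM were proportional within each gene to within 5% in 100% of the values with a count of at least 50. Each mouse gave 1 sample. The code was tested on simulated data. Figures and tables were made with Python 3.11.15, pandas 2.3.3, numpy 2.4.6 and matplotlib 3.10.9.

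The members and lists were chosen with earlier results of these data known. Named were the members, up to 4 called genes per list of largest fold whose counts averaged 50 or more, and the 5 genes most like the members. Further genes, most of them outside this rule, were named after their values were seen. They were Ifnb1, Ifne, Ifnz, Ifnar1, Jak1, Jak2, Irf3, Bcl11a, Siglech, Ly6d, P2ry12, Cx3cr1, Tmem119 and Ttr. Dcx, Stmn2 and Tubb3 were named from the paper. Alternatives were DESeq2 1.42.0, limma 3.58.1 on log2(TPM + 1) or log2(TPM + 0.1), size factors of DESeq2, filterByExpr, calls with no limit on the fold, the name scheme as a covariate, subsets of tumors and the omission of single tumors. Chosen after seeing the data were the numbered mice or R26P mice alone, the omission of 29048 with R26P115 and, for the genes of the lists, the omission of single tumors. Reads carry no molecular identifiers.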

Additional observations from a re-analysis of the deposited data

Results flagged for a closer look

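Within the 6 intracranial extra-CNS tumors, the tumor of R26P115 stood apart below the others in 5 of the 9 members. It held Isg15 at 39.4 TPM, Ifit2 at 10.04 TPM, Ifit3 at 19.5 TPM, Usp18 at 10.1 TPM and Oas1a at 9.98 TPM. In each case its gap to the next tumor on the log2(TPM + 1) scale, as a share of the range of the group, exceeded Dixon's 95% critical value. In all, 27 sets of values (9 genes in 3 sites) were examined and 5 were flagged, all in this 1 tumor, and chance flags about 1 in 20. The members move together, so these are not 5 separate observations. In this tumor Ttr took 19.95% of TPM, and its TMM factor was 0.78, the lowest of the 16.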

How the results depend on the processing

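No paired analysis was possible because no mouse gave more than 1 tumor and the labels link no tumors across groups. The 9 members stayed called lower in intra-CNS tumors under 28 of 29 alternatives. The exception was R26P mice alone (2 against 3 tumors), with 0 members and 0 genes called. Over all genes, 5689 were called, 3533 with E6 tumors alone, and 4766 to 6649 when single tumors were left out. The median log2 fold change of all genes moved from -0.15 to 0.20 with limma on log2(TPM + 1), where 4075 genes were called higher and 1307 lower in place of 2829 and 2860, and to 0.35 with log2(TPM + 0.1) (4992 higher and 1616 lower). With E6 tumors alone the split was 1315 higher and 2218 lower. The members' fold changes with limma on log2(TPM + 1) were -1.28 (Stat2) to -4.35 (Ifit1), and all 9 were called. Between extra-CNS sites, 0 members were called under all 21 alternatives. The count of genes was 1, with 490 by DESeq2, 2 by limma on log2(TPM + 0.1), 0 with tumors induced at E8 alone (1665 at an unadjusted p under 0.05), 0 with numbered mice alone (1727), and 0 to 3 when single tumors were left out. Leaving out single tumors gave log2 fold changes of -0.26 to 0.43 for Isg15, -0.21 to 0.39 for Ifit2, -0.22 to 0.73 for Ifit3 and -0.53 to 0.070 for Oas1a, which crossed 0. Oas1a also turned to 0.10 with E8 tumors alone and 0.32 with 43990A as intracranial, and Ifit3 to -0.00098 with numbered mice alone. The median correlation of pairs was 0.85, 0.74 by Spearman's rho, and 0.77 to 0.90 when single tumors were left out. The cause was not tested for any of these changes. Every value of the members rested on at least 14 counts, while the ligands were mostly at or under 3 counts. In 29941C, the tumor with the most counts (110177889), 15 of 21 ligands were at 0 TPM. The part of depth in the ligand counts was not tested.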
